A study of Caenorhabditis elegans with 24 samples.

Results

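Ribosome footprints, the stretches of mRNA covered by ribosomes, were compared between heat-stressed and unstressed wild-type Caenorhabditis elegans. The 6 wild-type footprint libraries were taken, 3 from animals at 20 °C and 3 from animals at 37 °C, out of 24 libraries in the study. All 19669 genes listed in the count files were considered, and 11969 passed the filter on low counts. The animals were adult worms of the laboratory strain N2. The remaining libraries were 6 of wild-type mRNA at the same temperatures and 12 of animals lacking C38D4.9 (metl-5), a gene for a methyltransferase of ribosomal RNA. How long the animals were held at 37 °C is not given in the sources used here, nor is whether replicates were separate cultures, so the p-values reflect only how much these samples varied, which may be technical.

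Heat unfolds proteins, and cells answer through the transcription factor HSF-1, which switches on chaperones that hold or refold them. Small heat shock proteins bind unfolding proteins without using ATP, while HSP70 and HSP90 refold them in cycles that co-chaperones drive. Heat is also known to lower protein synthesis in general, and ribosome profiling shows which mRNAs the remaining ribosomes are on. A footprint level combines how much mRNA there is and how densely ribosomes cover it. It is relative to the other genes of a library and says nothing about the total amount of translation.

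The libraries held 12846631 to 19012050 gene counts at 20 °C, and at 37 °C they held 4410194 (replicate 1), 10947947 (replicate 2) and 6474264 (replicate 3). At 37 °C the share of reads not counted on genes, unmapped reads included, was 52.0, 19.1 and 29.1%, against 14.7 to 16.9% at 20 °C. Unmapped reads alone were 34.8, 5.35 and 6.78% at 37 °C and 2.22 to 5.02% at 20 °C. Wild-type 37 °C replicate 2 stood between the temperatures: its log2 levels correlated across genes at 0.978 with 20 °C replicate 2, and at 0.929 and 0.92 with the other libraries at 37 °C. Furthermore, 20 °C replicate 2 and 37 °C replicate 3 held 147 and 27 counts of cTel55X.1, an RNA that marks the metl-5 strain and was at 0 counts in the other wild-type footprint libraries. These 3 are called the doubted libraries, and results are given with and without them. The metl-5 gene itself had 4.44 to 6.55 footprint CPM (counts per 1000000 gene counts of the library) at 20 °C and 5.56 to 8.4 at 37 °C, a log2 change of 0.21 ± 0.35 (SE, adjusted p = 0.702).

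With all 6 libraries, 118 of 11969 genes (0.986%) were called at an adjusted p under 0.05, and 117 of them were higher at 37 °C. The 1 lower gene (0.00835%) was T28B8.4, known by its sequence name only, which lay at 7.47, 6.07 and 8.17 CPM at 20 °C and 1.59, 2.19 and 1.70 CPM at 37 °C (log2 change −2.03 ± 0.37, adjusted p = 0.0427, and 0.086 with the replicate number as a block). With the block, 71 genes (0.593%) were called, all higher. Without the 2 libraries holding reads of both strains the count was 26 (0.213%), all higher. Without 37 °C replicate 2 it was 4509 of 12362 (36.5%), with 2126 higher and 2383 lower. Leaving out all 3 doubted libraries gave 2722 of 12760 (21.3%), with 1079 higher and 1643 lower, where the 1 library left at 37 °C was assumed to vary like those at 20 °C. Among genes called lower without replicate 2, that replicate had moved a median of 26.3% of the way from the 20 °C mean to the mean of the other 37 °C libraries. Among the 2126 genes called higher in that fit it had moved a median of 36.9%. Both sets were chosen by the change in replicates 1 and 3, which also mark the end of this scale. That choice favours a low value for replicate 2. Among the 117 genes called higher with all 6 libraries, replicate 2 included, the median was 69.7%.

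The 117 higher genes were all called without replicate 2 as well, 62 were called with the block and 25 without the libraries of both strains. In every one of them all 3 libraries at 37 °C lay above all 3 at 20 °C, a separation that 22.4% of all genes tested also showed. A total of 62 had only a sequence name. Of the 33 genes called for footprints and named in the text, 8 kept their call whichever single library was left out: aip-1, sqst-1, hsp-16.41, hsp-16.2, hsp-70, F08H9.4, Y38H6C.8 and Y53F4B.7. The others lost it without at least 1 library, in each case a library other than 37 °C replicate 2. Without the libraries of both strains, hsp-70, hsp-16.2, hsp-16.41, F08H9.4, aip-1, sqst-1, tent-5, memi-1, cnc-11, fbxb-14, Y38H6C.8 and Y53F4B.7 were still called, and the other 21 of the 33 were not (adjusted p = 0.0517 to 0.238).

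Heat shock chaperones rose. Of a combined list of 35 chaperone genes, 32 were tested and 12 rose, with none lower, against 0.978% of all genes called higher. Their median log2 change was 1.13, against −0.01 over all genes, and in 25 of the 32 the libraries of the 2 temperatures did not overlap. The count was 11 with the block, 4 without the libraries of both strains, 23 without replicate 2 (17.2% of all genes were higher there) and 19 without the 3 doubted libraries (8.46%). The shares of all genes against which the counts of each list below are to be read are 0.978% higher with 6 libraries, 17.2% higher and 19.3% lower without replicate 2, and 8.46% higher and 12.9% lower without the 3 doubted libraries. Groups did not overlap in 22.4% of all genes upward and 17.6% downward. Together the list took 2.30, 2.67 and 2.56% of all footprints at 20 °C and 7.82, 5.15 and 8.62% at 37 °C.

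The heat-inducible cytosolic HSP70 is encoded by hsp-70 (chromosome I, 9320325 to 9322519, minus strand, WBcel235). Its footprints were at 33.7, 33.3 and 19.7 CPM at 20 °C and 17602, 6909 and 24087 CPM at 37 °C. By raw footprint count, uncorrected for gene length, it held rank 3699, 3915 and 5043 among genes at 20 °C and rank 1, 6 and 1 at 37 °C. The groups lay far apart, with replicate 2 lowest at 37 °C. The log2 change was 9.07 ± 0.64 (adjusted p = 0.000336), and 9.42 ± 0.34 without replicate 2. The related genes F44E5.4 and F44E5.5 (chromosome II, 11757107 to 11759311 and 11759662 to 11761861) had 0 footprint counts over the 20 °C libraries. At 37 °C F44E5.4 had 54, 16 and 114 counts, at least 129.4-fold higher, and F44E5.5 had 43, 13 and 127, at least 128.7-fold higher, where the 20 °C group as a whole was set to a limit of 3 counts. These are near-identical copies, and how reads were split between them is uncertain.

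The small heat shock proteins hsp-16.2 (chromosome V, 1804334 to 1804957) and hsp-16.41 (V, 1805178 to 1805875) are neighbours on opposite strands. Footprints on hsp-16.2 were at 6.52, 7.16 and 4.65 CPM at 20 °C and 5576, 2039 and 4023 CPM at 37 °C, a log2 change of 9.24 ± 0.54 (adjusted p = 0.000205). Those on hsp-16.41 were at 9.99, 10.4 and 5.42 CPM and at 9303, 3401 and 8088 CPM, a change of 9.59 ± 0.60 (adjusted p = 0.000205). Both genes were thus close to absent at 20 °C, and replicate 2 was again the lowest at 37 °C. The other 2 matched members of this family, hsp-16.1 and hsp-16.48, did not pass the filter for footprints, and these have near-identical copies elsewhere.

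Of 9 tested genes for other small heat shock proteins, 3 rose against 0.978% of all genes, 8 without replicate 2 (17.2%), and 1 without the libraries of both strains (0.213%). F08H9.4 went from 0.0526, 0.234 and 0 CPM to 25.6, 13.2 and 20.7 CPM (log2 change 7.57 ± 0.68, adjusted p = 0.00163). Footprints on hsp-12.6, a target of the insulin pathway factor DAF-16, went from 1.05, 0.467 and 0.352 CPM to 22.9, 4.66 and 12.5 CPM (4.26 ± 0.67, adjusted p = 0.0207). On hsp-17 they went from 65.9, 57.4 and 54.3 CPM to 352, 269 and 291 CPM (2.29 ± 0.24, adjusted p = 0.00304). None of these genes had overlapping groups.

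**Figure D1:**
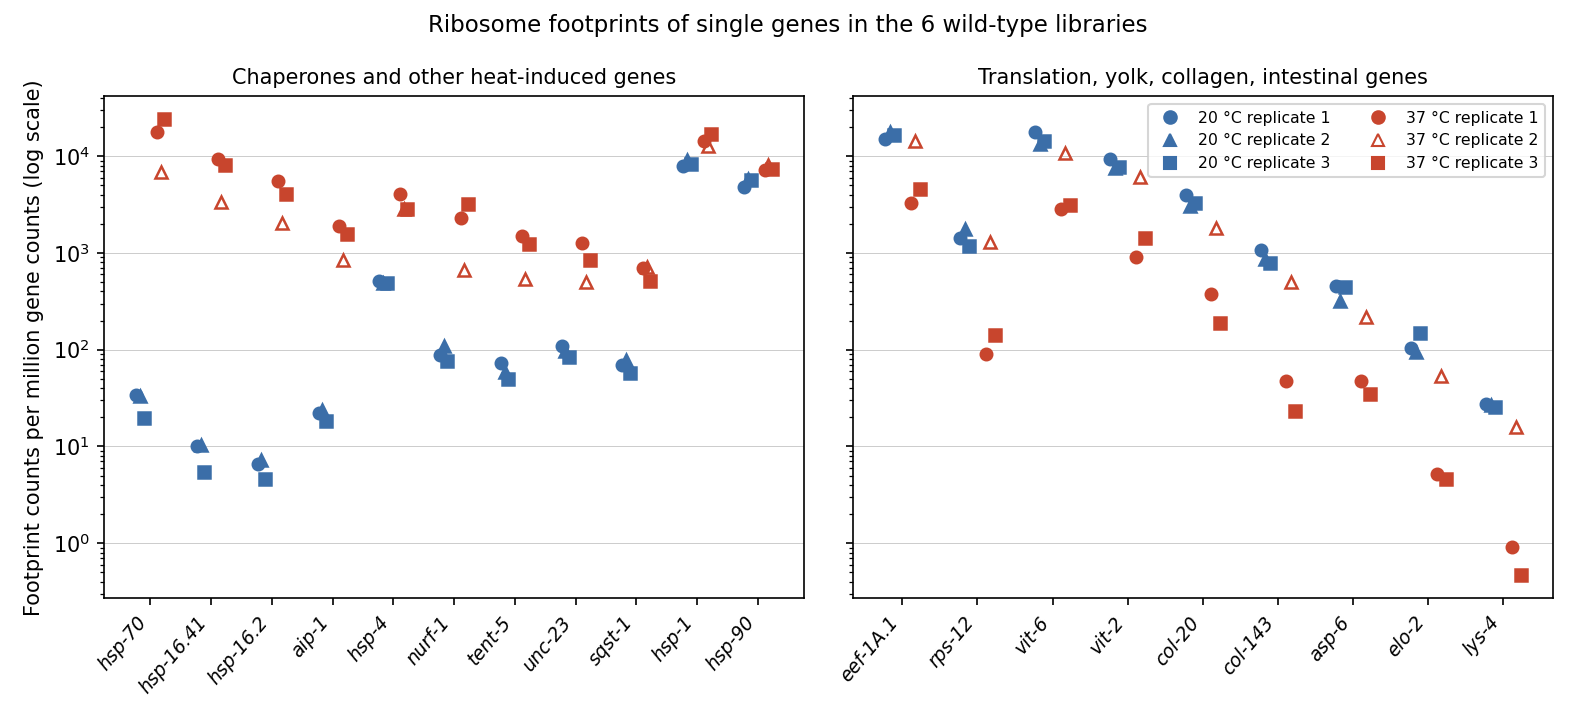
Footprint levels in CPM (log axis) of single genes in each wild-type library, with 20 °C in blue and 37 °C in red; the marker shape gives the replicate and open triangles are 37 °C replicate 2. On the left hsp-70 goes from at most 33.7 CPM to at least 6909 CPM, and on the right replicate 2 lies near the 20 °C libraries while replicates 1 and 3 lie far below them.

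Among HSP70 partners, 5 of 9 tested genes of the HSP70 list rose (1 without the libraries of both strains), among them the exchange factors unc-23 and bag-1. The BAG-domain gene unc-23, known for keeping body wall muscle attached, went from 110, 96.1 and 83.1 CPM to 1281, 499 and 847 CPM (log2 change 3.10 ± 0.37, adjusted p = 0.00523). bag-1 went from 48, 53.3 and 48.5 CPM to 196, 141 and 181 CPM (1.72 ± 0.24, adjusted p = 0.0131). The constitutive HSP70 gene hsp-1 was already high, at 7852, 9047 and 8352 CPM at 20 °C, and was at 14299, 12691 and 17048 CPM at 37 °C. Its groups did not overlap, but its change of 0.73 ± 0.30 was not called (adjusted p = 0.134), though it was without replicate 2 (0.81 ± 0.20, adjusted p = 0.0117).

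The HSP90 gene hsp-90 was at 4821, 5796 and 5738 CPM at 20 °C and 7193, 8178 and 7310 CPM at 37 °C, a change of 0.40 ± 0.28 (adjusted p = 0.340), not called without replicate 2 either (0.32 ± 0.21, adjusted p = 0.251). Of the 9 genes for HSP90 and its co-chaperones 1 rose, unc-45, which codes for a myosin chaperone (130, 117 and 129 CPM against 468, 251 and 455 CPM; 1.57 ± 0.29, adjusted p = 0.0439, and 0.0699 with the block). Among 29 genes for J-domain co-chaperones, which deliver proteins to HSP70, 1 rose: dnj-13 went from 369, 433 and 414 CPM to 3065, 1073 and 4184 CPM (2.70 ± 0.47, adjusted p = 0.0338, and 0.086 with the block). Of the J-domain genes 9 were higher without replicate 2. None of 14 genes for the CCT chaperonin and prefoldin, which fold actin and tubulin, was called, and 2 were higher without replicate 2, near the 17.2% of all genes. The regulator hsf-1 was at 40.8, 53.7 and 54.5 CPM and at 62.4, 64.7 and 107 CPM (0.58 ± 0.30, adjusted p = 0.205).

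Genes for disposal of damaged proteins rose singly. Of 14 tested genes of the list with aip-1, ubiquitin and CDC-48, 3 rose, and without replicate 2 4 were higher and 2 lower. The gene aip-1 (chromosome V, 14012333 to 14013644) codes for an AN1 zinc-finger protein that acts with the proteasome under stress. Its footprints went from 22.4, 23.7 and 18.4 CPM to 1885, 838 and 1573 CPM (log2 change 5.99 ± 0.40, adjusted p = 0.000261). The polyubiquitin gene ubq-1 went from 1007, 1305 and 1282 CPM to 4128, 3069 and 5476 CPM (1.75 ± 0.32, adjusted p = 0.0424, and 0.086 with the block). The autophagy receptor gene sqst-1, the homolog of p62, went from 69.7, 77.6 and 57.2 CPM to 699, 708 and 507 CPM (3.16 ± 0.27, adjusted p = 0.00136), with replicate 2 here the highest. The Beclin gene bec-1 went from 17.5, 21.5 and 15.6 CPM to 58.7, 54.4 and 53 CPM (1.54 ± 0.25, adjusted p = 0.0260, and 0.0586 with the block). Of 27 autophagy genes 2 rose, and 9 were higher and 1 lower without replicate 2. None of 33 proteasome subunits was called, and without replicate 2 none was higher and 5 were lower, where 19.3% of all genes were.

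In the unfolded protein response of the endoplasmic reticulum, 2 of 21 tested genes rose. The chaperone gene hsp-4, for BiP, went from 514, 495 and 488 CPM to 4093, 2864 and 2815 CPM (2.63 ± 0.29, adjusted p = 0.00346). The transcription factor gene xbp-1 went from 249, 197 and 147 CPM to 883, 523 and 627 CPM (1.71 ± 0.30, adjusted p = 0.0362). The list's median was −0.11, and 5 members were lower without replicate 2, near the 19.3% of all genes. One of those was enpl-1, for the luminal HSP90, at 317, 325 and 298 CPM at 20 °C and 134, 294 and 89.4 CPM at 37 °C (−0.93 ± 0.40, adjusted p = 0.151, and −1.58 ± 0.26, adjusted p = 0.00175, without replicate 2). No gene of the mitochondrial stress response (11 tested) was called.

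Outside the lists of protein folding, tent-5, for a poly(A) polymerase, went from 73.0, 58.8 and 49.4 CPM to 1507, 542 and 1244 CPM (4.11 ± 0.42, adjusted p = 0.00256). The chromatin remodelling gene nurf-1 went from 88.7, 109 and 76.7 CPM to 2310, 668 and 3199 CPM (4.43 ± 0.55, adjusted p = 0.00632). A histone gene, his-41, went from 73.4, 58.6 and 58.2 CPM to 553, 213 and 373 CPM (2.50 ± 0.35, adjusted p = 0.0131). In all 3 the temperatures were well separated, and replicate 2 was the lowest at 37 °C. The glutathione S-transferase gene gst-36 (1.69 ± 0.24, adjusted p = 0.0149) and the nuclear receptor gene nhr-17 (2.15 ± 0.28, adjusted p = 0.00922) also rose, the latter as 1 of 130 tested nuclear receptor genes.

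A few genes had footprints almost only in the heat, and their mRNA was near absent at 20 °C too. The F-box gene fbxb-14 had 0 counts at 20 °C and 67, 79 and 20 counts at 37 °C, at least 116.7-fold higher. Y38H6C.8 had 0 and then 73, 77 and 40 counts (at least 133.6-fold higher), and Y53F4B.7 had 0 and then 39, 93 and 63 counts (at least 137.1-fold higher). These folds are for the pooled libraries of each temperature, not for each library. Mean mRNA went from 0.041 to 47.5 CPM in fbxb-14, from 0.0605 to 81.4 CPM in Y38H6C.8 and from 0 to 68.5 CPM in Y53F4B.7. The footprint change was not called different from that of mRNA in fbxb-14 and Y38H6C.8 (adjusted p = 0.787 and 0.793). Relative to library size, replicate 2 lay between the other 37 °C libraries for fbxb-14 (15.2, 7.22 and 3.09 CPM) and Y38H6C.8 (16.6, 7.03 and 6.18 CPM), and just below them for Y53F4B.7 (8.84, 8.49 and 9.73 CPM). The antimicrobial peptide gene cnc-11 went from 0, 0.156 and 0 CPM to 7.26, 5.39 and 1.39 CPM (6.32 ± 0.99, adjusted p = 0.0207). It was 1 of 37 antimicrobial peptide genes to rise (0.978% of all genes), while 12 were higher and 6 lower without replicate 2 (17.2 and 19.3% of all genes). Under the same rule for naming genes, the fit without replicate 2 added mtd-1, whose 185 CPM in 37 °C replicate 1 stood apart from 7.57 CPM in replicate 3 and 2.04 to 3.19 CPM in the other libraries.

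Of 24 tested germline marker genes, 1 rose for footprints, and 10 were higher and 2 lower without replicate 2 (17.2 and 19.3% of all genes). For mRNA none was higher and 1 lower (3 with library totals), and the footprint change exceeded that of mRNA in 1, against 4.95% of all genes. That gene and the 3 that follow it were taken singly and do not speak for the list. The Notch receptor gene glp-1, which keeps germ cells dividing, had footprints at 25.1, 29 and 22 CPM at 20 °C and 116, 54.2 and 115 CPM at 37 °C (1.83 ± 0.33, adjusted p = 0.0402, and 0.086 with the block). Its mRNA log2 change was −0.73 ± 0.33 (adjusted p = 0.140), and the change of footprints minus that of mRNA was 2.57 ± 0.50 (adjusted p = 0.0110). The CPEB gene fog-1, which directs germ cells to become sperm, went from 1.42, 1.32 and 1.13 CPM to 7.48, 3.84 and 10.3 CPM of footprints (2.39 ± 0.46, adjusted p = 0.0473, and 0.086 with the block). Its mRNA fell by 1.35 ± 0.40 on the log2 scale (adjusted p = 0.0310), a call that was lost without any 1 of 4 mRNA libraries, and the difference was 3.76 ± 0.60 (adjusted p = 0.00804). The Nanos gene nos-1 was at 0.158, 0.311 and 0.704 CPM of footprints and then at 6.80, 1.83 and 6.49 CPM (3.57 ± 0.70, adjusted p = 0.0531), with a difference from mRNA of 4.42 ± 0.76 (adjusted p = 0.00808). The gene memi-1, which acts in the egg at fertilisation, went from 5.79, 21.1 and 10.8 CPM to 125, 63.6 and 177 CPM (3.21 ± 0.53, adjusted p = 0.0288, and 0.086 with the block), with a difference from mRNA of 3.32 ± 0.62 (adjusted p = 0.00964). The differences of these 4 genes were called whichever single library was left out.

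Ribosomal proteins took 11.9, 14.1 and 14.8% of footprints at 20 °C and 6.42, 12.7 and 7.12% at 37 °C, with replicate 2 inside the 20 °C range. None of the 75 cytosolic ribosomal protein genes was called with 6 libraries (median −0.67), and the groups were separated downward in 14 of them, against 17.6% of all genes. Without replicate 2, 54 fell and 1 rose (median −1.12), against 19.3% of all genes lower, and without the 3 doubted libraries 37 were lower (12.9% of all genes). For rps-12 the levels were 1430, 1751 and 1169 CPM at 20 °C and 90.7, 1297 and 140 CPM at 37 °C (−1.56 ± 0.84, adjusted p = 0.223, and −3.73 ± 0.32, adjusted p = 7.91e-05, without replicate 2). For rpl-10 they were 2076, 2476 and 2118 CPM and 557, 1907 and 523 CPM (−1.22 ± 0.49, adjusted p = 0.130, and −2.13 ± 0.23, adjusted p = 0.000252). The acidic stalk protein gene rla-1 was at 1161, 1384 and 1406 CPM and at 125, 942 and 176 CPM (−1.73 ± 0.67, adjusted p = 0.122, and −3.21 ± 0.29, adjusted p = 9.69e-05). In each of these genes replicate 2 was several times above the other 37 °C libraries.

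Elongation factors, which carry the ribosome along the mRNA, also held a smaller share in 37 °C replicates 1 and 3. They took 2.69, 3.07 and 3.13% of footprints at 20 °C and 0.836, 2.45 and 1.07% at 37 °C. None of 7 genes for elongation and release factors was called with 6 libraries, although 6 were separated downward (17.6% of all genes), and 6 fell without replicate 2 (19.3% of all genes, median −2.17). The tRNA carrier gene eef-1A.1 was at 15027, 17924 and 16712 CPM and at 3271, 14253 and 4530 CPM (−1.23 ± 0.53, adjusted p = 0.147, and −2.17 ± 0.25, adjusted p = 0.000296, without replicate 2). The exchange factor subunit eef-1B.1 was at 975, 1168 and 1138 CPM and at 102, 777 and 97.0 CPM (−1.81 ± 0.73, adjusted p = 0.131, and −3.55 ± 0.27, adjusted p = 4.48e-05).

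Initiation and ribosome assembly genes showed higher calls in one setting and not in another. None of the 34 initiation factor genes was called with 6 libraries (median 0.49), and without replicate 2 15 rose and 4 fell (17.2 and 19.3% of all genes, median 0.66). The start-site factor gene eif-1 was at 247, 271 and 302 CPM and at 550, 319 and 649 CPM (0.81 ± 0.31, adjusted p = 0.116, and 1.04 ± 0.24, adjusted p = 0.00767, without replicate 2). Of 20 genes of the nucleolus and ribosome assembly none was called, and 9 rose and 1 fell without replicate 2 (median 0.74). Among them pro-2 was at 125, 123 and 146 CPM and at 365, 160 and 416 CPM (1.18 ± 0.35, adjusted p = 0.0878, and 1.48 ± 0.24, adjusted p = 0.00152). Splicing factors resembled them, with 0 of 43 called, and 17 higher and 1 lower without replicate 2. Without all 3 doubted libraries these 3 lists had 0, 1 and 4 genes higher and 2, 0 and 1 lower, near or below the 8.46 and 12.9% of all genes. Their footprint shares in 37 °C replicate 1 were 1.32% for initiation factors, 1.06% for ribosome assembly and 0.848% for splicing factors, each above all 20 °C libraries.

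**Figure D2:**
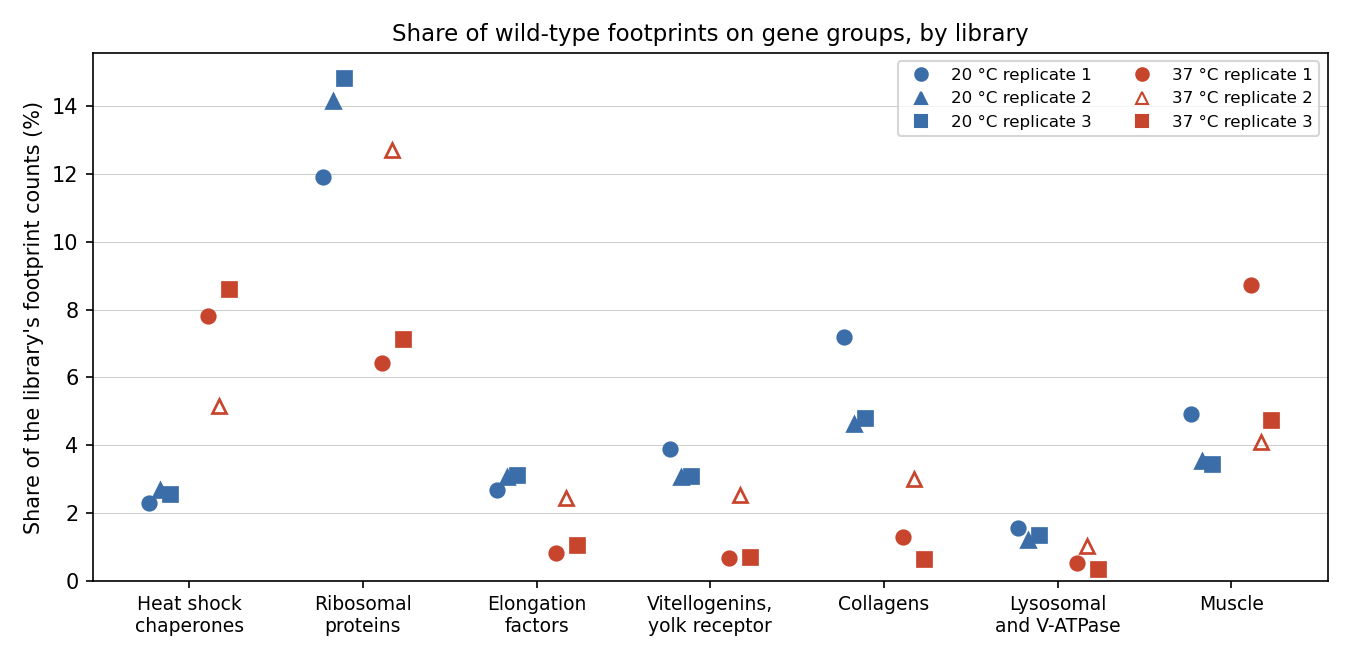
Share of each wild-type library's footprint counts (percent, linear axis from 0) on 7 gene groups, with 20 °C in blue, 37 °C in red and 37 °C replicate 2 as open triangles. Heat shock chaperones go from 2.30 to 2.67% up to 5.15 to 8.62%, while elongation factors, vitellogenins and collagens are lowest in 37 °C replicates 1 and 3.

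Yolk and gut genes had fewer footprints in 37 °C replicates 1 and 3. Vitellogenins, yolk proteins made in the intestine, took with their receptor 3.89, 3.08 and 3.10% of footprints at 20 °C and 0.684, 2.52 and 0.711% at 37 °C. None of these 7 genes was called with 6 libraries (median −1.50), 5 were separated downward, and all 7 fell without replicate 2 (median −2.67) and without the 3 doubted libraries. For vit-6 the levels were 17720, 13464 and 14503 CPM and 2818, 10924 and 3109 CPM (−1.50 ± 0.53, adjusted p = 0.105, and −2.44 ± 0.23, adjusted p = 0.000106, without replicate 2). For vit-2 they were 9344, 7552 and 7703 CPM and 916, 6108 and 1421 CPM (−1.60 ± 0.63, adjusted p = 0.126, and −2.89 ± 0.28, adjusted p = 0.000122).

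Of 39 genes for lysosomal proteases and the V-ATPase, which acidifies lysosomes, none was called with 6 libraries (median −1.16). Here 23 were separated downward (17.6% of all genes), and without replicate 2 35 fell and 1 rose (19.3 and 17.2% of all genes, median −1.88). The aspartic protease gene asp-6 was at 460, 318 and 443 CPM and at 46.9, 217 and 35.2 CPM (−2.09 ± 0.62, adjusted p = 0.0878, and −3.40 ± 0.31, adjusted p = 9.66e-05, without replicate 2). The cathepsin B gene cpr-9 was at 465, 344 and 375 CPM and at 59.6, 256 and 39.2 CPM (−1.80 ± 0.61, adjusted p = 0.101, and −3.09 ± 0.30, adjusted p = 0.000127). Of lysozymes and saposin-like proteins, defence proteins of the gut, 18 of 26 fell and 2 rose without replicate 2 (median −2.59). The lysozyme gene lys-4 was at 27.6, 26.5 and 25.8 CPM and at 0.907, 15.8 and 0.463 CPM (−2.19 ± 0.92, adjusted p = 0.142, and −5.41 ± 0.44, adjusted p = 6.53e-05).

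Lipid and detoxification lists were mixed. Of 16 desaturases and elongases, which shape fatty acids, 8 fell without replicate 2, and of 59 genes for fatty acid activation and oxidation 30 fell and 3 rose. The elongase genes elo-5 and elo-6, which make branched-chain fatty acids, were at 87.2 to 108 and 97.5 to 124 CPM at 20 °C. In 37 °C replicates 1 and 3 elo-5 was at 3.85 and 2.93 CPM and elo-6 at 4.31 and 1.08 CPM, and in replicate 2 they were at 57.9 and 52.2 CPM. Without replicate 2 the log2 changes were −4.91 ± 0.36 (adjusted p = 3.77e-05) and −5.58 ± 0.50 (adjusted p = 9.66e-05), and with it −2.16 ± 0.92 and −2.59 ± 1.0, not called (adjusted p = 0.144 and 0.121). UDP-glucuronosyltransferases, which attach sugars to toxins, fell in 19 of 45 cases without replicate 2, and cytochrome P450 genes in 12 of 40, with none higher in either list, against 19.3% of all genes lower. Glutathione S-transferases were higher in 5 and lower in 5 of 39 cases there, and antioxidant enzymes higher in 5 and lower in 3 of 20. The aspartic protease gene asp-13 was at 38.8 to 56.6 CPM at 20 °C, at 28.7 CPM in replicate 2, and at 0.453 and 0.463 CPM in 37 °C replicates 1 and 3.

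Intestinal marker genes, 7 of 15 of which also belong to other lists (vit-2, vit-6 and lys-4 among them), moved with these lists. They took 2.38 to 3.13% of footprints at 20 °C and 0.473, 1.94 and 0.528% at 37 °C, and 13 of 14 fell without replicate 2 (median −2.42). The 8 markers in no other list took 0.243, 0.17 and 0.256% at 20 °C and 0.0786, 0.158 and 0.0581% at 37 °C, and 6 of the 7 tested fell without replicate 2. For all markers the share of mRNA was 0.975% at 20 °C and 1.12% at 37 °C on average. Of the 14, 3 were lower and 1 higher for mRNA (3 and 0 with library totals). In whole worms fewer cells of a type and less RNA or fewer ribosomes per cell cannot be told apart. The part of the marker genes in these results was not tested.

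Cuticle collagens, which form the worm's outer coat, took 7.18, 4.62 and 4.8% of footprints at 20 °C and 1.29, 3.00 and 0.654% at 37 °C. None of 125 tested genes was called with 6 libraries (median −1.30), but 63 were separated downward (17.6% of all genes). Without replicate 2, 75 of 131 fell and 2 rose (19.3 and 17.2% of all genes), and without the 3 doubted libraries 79 of 130 were lower (12.9%). For col-20 the levels were 3993, 3081 and 3297 CPM and 374, 1826 and 191 CPM (−2.18 ± 0.72, adjusted p = 0.0961, and −3.71 ± 0.33, adjusted p = 9.11e-05, without replicate 2). The adult collagen gene col-19 was at 2389, 1677 and 1792 CPM and at 421, 1090 and 193 CPM (−1.85 ± 0.55, adjusted p = 0.0878, and −2.77 ± 0.35, adjusted p = 0.000476). Markers of the hypodermis, the tissue that makes collagens, took 0.251 to 0.397% of footprints at 20 °C and 0.144, 0.199 and 0.103% at 37 °C, but 10 of the 15, col-19 among them, also belong to other lists. The 5 in no other list took 0.0719, 0.0543 and 0.0916% at 20 °C and 0.0697, 0.0572 and 0.0685% at 37 °C, so that the temperatures overlapped.

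Muscle genes rose when replicate 2 was left out. None of 31 genes of the contractile apparatus was called with 6 libraries (median 0.69), and without replicate 2 19 rose and 1 fell. Without the 3 doubted libraries the median was 1.12, but only replicate 1, where the muscle share was highest, was then left at 37 °C. The myosin light chain gene mlc-1 was at 811, 596 and 577 CPM and at 2922, 851 and 2122 CPM (1.49 ± 0.42, adjusted p = 0.0862, and 1.84 ± 0.24, adjusted p = 0.000542, without replicate 2). The troponin I gene unc-27 was at 1588, 1197 and 1007 CPM and at 5334, 1909 and 3721 CPM (1.46 ± 0.39, adjusted p = 0.0862, and 1.76 ± 0.24, adjusted p = 0.000773). As a share of footprints the list was at 4.92, 3.52 and 3.45% and at 8.73, 4.11 and 4.75%, so that 37 °C replicates 2 and 3 overlapped the 20 °C libraries.

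Sperm markers took 0.311, 0.234 and 0.271% of footprints at 20 °C and 0.113, 0.212 and 0.126% at 37 °C. With 6 libraries 1 of 78 was called, the higher gene fog-1, and without replicate 2 45 of 81 fell and 5 rose. The phosphatase gene gsp-3, needed for sperm motility, was at 56.1, 27 and 46.7 CPM and at 4.53, 19.3 and 3.24 CPM (−2.29 ± 0.62, adjusted p = 0.0862, and −3.58 ± 0.42, adjusted p = 0.000376, without replicate 2). Of 20 markers of oocytes and embryos 7 fell without replicate 2 (19.3% of all genes), among them the eggshell gene cpg-2, which also varied at 20 °C (247, 860 and 506 CPM, against 33.3, 549 and 102 CPM). Among 22 neuronal markers 1 was higher and none lower without replicate 2.

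**Figure D3:**
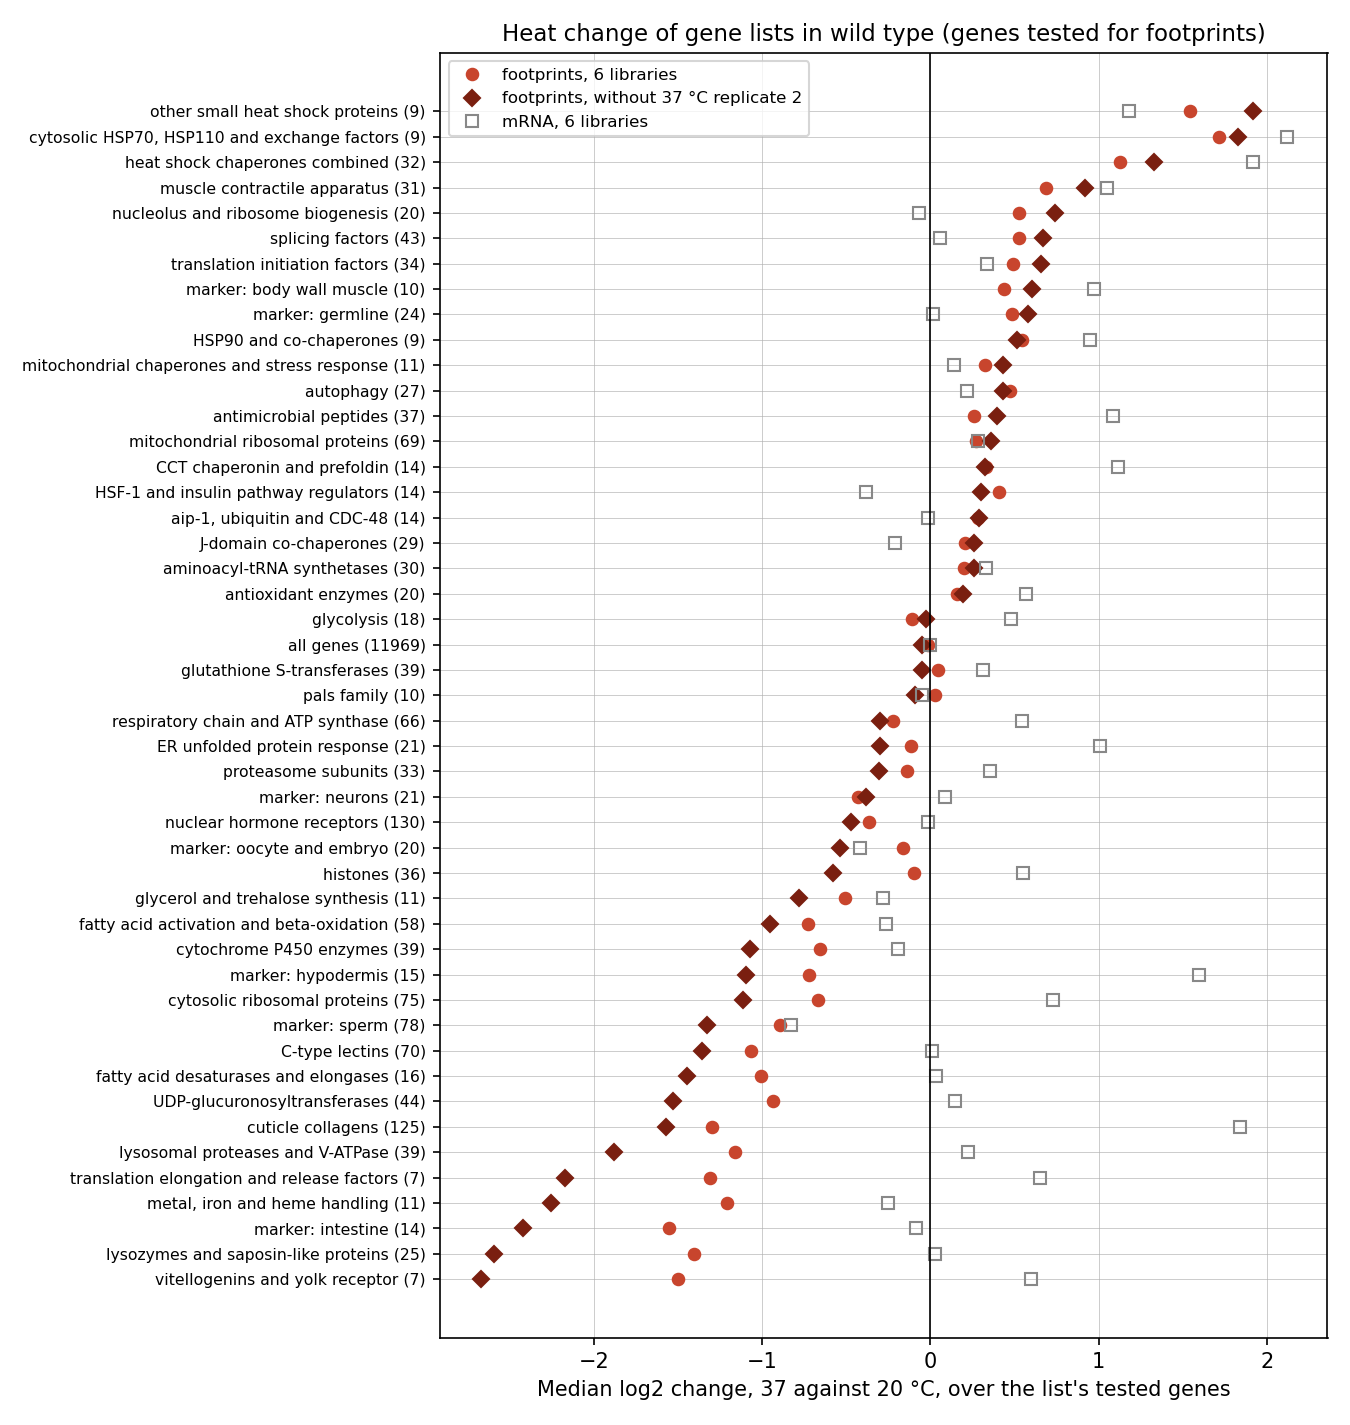
Median log2 change from 20 to 37 °C over the tested genes of each list, for footprints in 6 libraries (circles), footprints without 37 °C replicate 2 (diamonds) and mRNA (open squares); the number of genes tested for footprints is in brackets. Cuticle collagens lie at −1.30 for footprints and 1.84 for mRNA, while the combined heat shock chaperones lie above 0 in all 3.

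The mRNA libraries show which of these changes were also present in mRNA levels. For mRNA 1859 of 12456 genes (14.9%) were called, 1086 higher (8.72%) and 773 lower (6.21%). Scaling by library totals moved the median change of all mRNAs by −0.48 on the log2 scale and left 574 of 2515 called mRNAs higher. Directions for mRNA lists are therefore given under both scalings, except where only the main scaling is named. Of the 117 genes with more footprints 116 were tested for mRNA, 80 were higher and 9 lower. In the other direction 8.09% of the 989 higher mRNAs tested for footprints were called higher there with 6 libraries (0.978% of all genes). Without replicate 2 this was 28.8% of 1004 (17.2% of all genes), while 200 of the 1004 had footprints called lower. Of 753 lower mRNAs tested, 36% were lower for footprints without replicate 2 (19.3% of all genes), and 146 had footprints called higher. Across 11510 genes tested in both, the log2 changes correlated at Pearson's r = 0.327 and Spearman's rho = 0.165, as a description, since genes share libraries and are not independent.

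Chaperone mRNAs rose, and fewer of these genes were called higher for footprints. For mRNA 27 of 34 tested genes of the combined list were higher (23 with library totals), with a median of 1.91. For footprints 12 of 32 were, and 23 without replicate 2. With the main scaling the footprint change was below that of mRNA in 5 of 35 genes and above it in 0 (4.2 and 4.95% of all genes). It was below in 2 of 14 CCT and prefoldin genes and above in 0, and below in 7 and above in 2 of 21 genes of the ER list. The mRNA change was 9.99 ± 0.56 in hsp-16.41, 8.77 ± 0.49 in hsp-70 and 10.24 ± 0.51 in hsp-16.2. In the same order, the differences from footprints of −0.39 ± 0.61, 0.32 ± 0.61 and −0.99 ± 0.54 were not called (adjusted p = 0.765, 0.809 and 0.266). On simulated counts the test of this difference recovered 8% of 4-fold and 0% of 2-fold differences. A missing call is therefore no evidence of equal change. For hsp-90 the mRNA rose by 2.22 ± 0.33 (adjusted p = 0.000235), and the footprint change was lower than that by 1.80 ± 0.39 (difference −1.80, adjusted p = 0.0160), a call lost without 37 °C mRNA replicate 3 and without the libraries of both strains (adjusted p = 0.0744). In aip-1 the opposite held, with an mRNA rise of 3.66 ± 0.35 and a difference of 2.35 ± 0.47 (adjusted p = 0.0120). The mRNA counts carry no strand, and reads of hsp-70, hsp-90, enpl-1, glp-1, nos-1, eef-1A.1, col-19, spe-36, F09F9.2 and Y53F4B.25 cannot be told apart from those of a gene overlapping on the other strand.

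**Figure D4:**
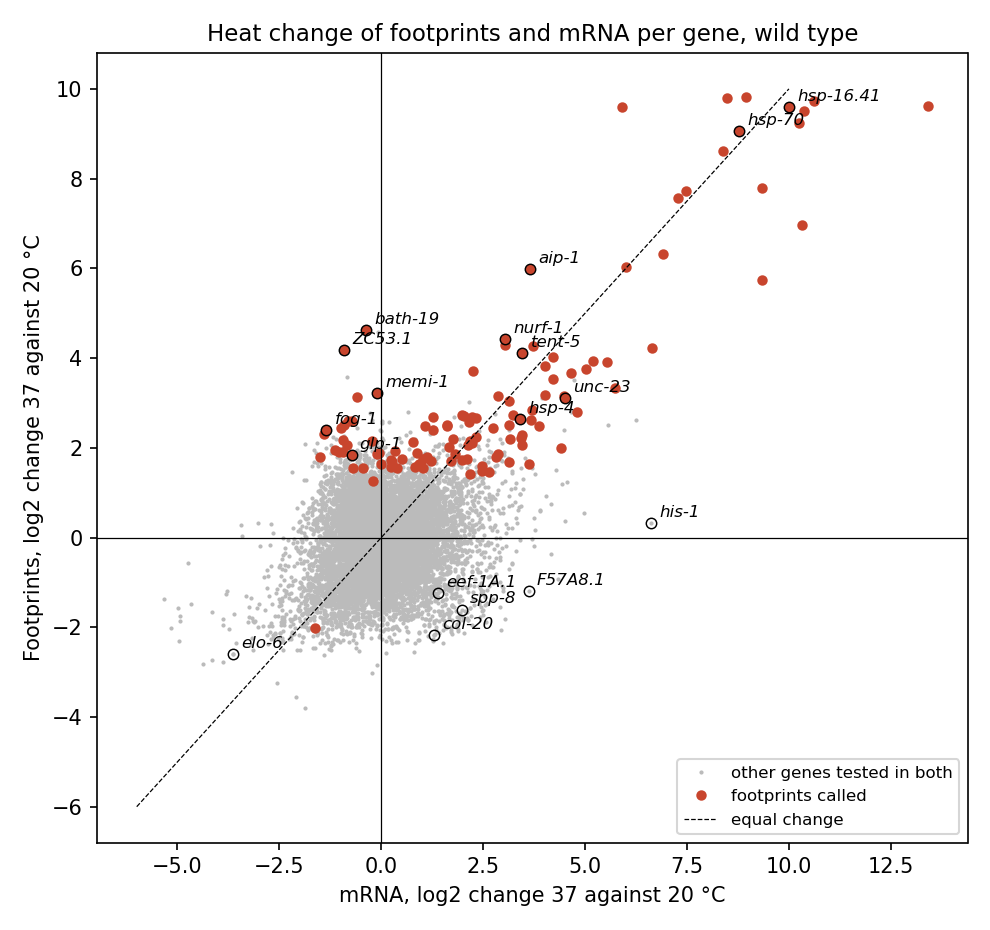
Log2 change from 20 to 37 °C per gene for mRNA (horizontal) and footprints (vertical) in all 6 wild-type libraries of each assay, with called footprint genes tested for mRNA in red, named examples circled and a dashed line of equal change. hsp-70 and hsp-16.41 lie near the line, bath-19, ZC53.1, memi-1, fog-1 and glp-1 lie above it with mRNA changes below 0, and his-1 and F57A8.1 lie below it.

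Footprint and mRNA changes differed in 1220 of 13322 genes (9.16%), with 660 (4.95%) changing more upward for footprints and 560 (4.2%) more downward. Without 37 °C replicate 2 there were 2492 (18.1%), with 1133 upward (8.23%) and 1359 downward (9.88%). Scaled by library totals, 1455 of 1721 were upward. The largest upward differences besides nos-1 and fog-1 were in ZC53.1 (5.14 ± 0.78, adjusted p = 0.00738), in bath-19, which codes for a BTB and MATH domain protein (5.04 ± 0.85, adjusted p = 0.00808), and in C48B4.9 (3.99 ± 0.58, adjusted p = 0.00738). ZC53.1 had footprints at 0.158, 0.156 and 0.0704 CPM and then 3.17, 1.74 and 3.24 CPM, and C48B4.9 at 3.37, 3.81 and 3.03 CPM and then 18.6, 7.31 and 20.2 CPM. The mRNA of C48B4.9 fell by 1.88 ± 0.35 (adjusted p = 0.00177). The lectin gene clec-222 was named by the same rule (3.74 ± 1.08, adjusted p = 0.0421), but its call was lost without any 1 of 9 libraries.

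The largest downward differences were in genes whose mRNA rose while their footprints were not called higher. The histone H4 gene his-1 had mRNA at 0.250, 0.121 and 0 CPM at 20 °C and 8.69, 11 and 8.24 CPM at 37 °C, with footprints at 2.10, 14.7 and 2.75 CPM and then 9.07, 10.9 and 5.25 CPM (difference −6.30 ± 1.08, adjusted p = 0.00808). Histone genes come in near-identical copies, and how reads were split among them is uncertain. F57A8.1 had mRNA at 7.37 to 9.05 CPM and then 47.7 to 88.5 CPM, with footprints at 4.26 to 4.83 CPM and then 1.36, 3.56 and 1.08 CPM (−4.77 ± 0.57, adjusted p = 0.00431). Its footprint change was −1.19 on the sense strand but 1.01 with unstranded counts. The mRNA counts carry no strand, and how far reads of the other strand made up the mRNA rise of F57A8.1 was not tested. The fertility gene spe-36, whose product acts on the sperm surface, showed a difference of −4.52 ± 0.84 (adjusted p = 0.00964). In gst-8 the mRNA rose by 5.92 ± 0.77 (adjusted p = 5.57e-05), while footprints stayed at 0.141 to 0.463 CPM in all 6 libraries, too few for a test of their own. The call of gst-8 for the difference was lost without the 3 doubted libraries. Y53F4B.25 and F09F9.2, known by sequence names, differed by −5.23 ± 1.11 and −4.84 ± 1.07 (adjusted p = 0.0144 and 0.0164). Both overlap a gene on the other strand, the call of F09F9.2 was lost without any 1 of 5 libraries, and that of Y53F4B.25 without the 3 doubted libraries.

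Collagens showed a wide gap between mRNA and footprints. For the cuticle collagens 99 of 134 mRNAs were higher and none lower (80 and 1 with library totals), and footprints changed less than mRNA in 83 of 135 genes, with none in the other direction. For col-19 the mRNA rose by 1.55 ± 0.36 and the difference was −3.38 ± 0.68 (adjusted p = 0.0121). The saposin-like gene spp-8 behaved alike, with mRNA higher by 1.97 ± 0.30 and a difference of −3.56 ± 0.66 (adjusted p = 0.00964). For cytosolic ribosomal proteins 12 of 75 mRNAs were higher (7 with library totals) and the difference was downward in 16 genes, in 6 with library totals and in 60 without replicate 2. For eef-1A.1 the mRNA rose by 1.40 ± 0.35 (adjusted p = 0.0121) and the difference was −2.62 ± 0.64 (adjusted p = 0.0231), a call lost without any 1 of 7 libraries. No mRNA of the vitellogenins was called (2 were lower with library totals), and the difference was downward in 2 of 7 genes, one of them vit-6 (−2.47 ± 0.68, adjusted p = 0.0349, lost without any 1 of 8 libraries), and in 6 without replicate 2. With library totals none of the 7 was called for the difference in all libraries. In elo-6, by contrast, the mRNA fell too, by 3.64 ± 0.35 (adjusted p = 1.3e-06). Of 89 sperm markers 29 mRNAs were lower and 2 higher (53 and 2 with library totals), and the difference was upward in 2 and downward in 1. Of 31 muscle genes 14 mRNAs were higher and 0 lower with the main scaling. There the difference was called in 0 genes, and was downward in 3 without replicate 2.

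The heat change of footprints was also set against that of the metl-5 strain. Of 12387 genes 0 were called for a different change between the strains with edgeR, 62 had an unadjusted p under 0.05, and DESeq2 called 0 as well, with 58 under 0.05. Both are far below a 0.05 share of the genes, the share of evenly spread p-values where no gene differs. The test was thus stricter than its threshold, and 0 calls are no evidence of equal change. The same test on simulated counts recovered 16% of 4-fold and 0% of 2-fold differences, so smaller differences were not detectable at this depth and spread. Libraries with reads of both strains entered on either side. In metl-5 20 °C replicate 2, heat-induced genes were already high. There aip-1 was at 650 CPM and F08H9.4 at 18.4 CPM. In metl-5 20 °C replicates 1 and 3 aip-1 was at 22.1 and 14.7 CPM and F08H9.4 at 0.0536 and 0.0869 CPM. Without metl-5 20 °C replicate 2, 0 of 12615 genes were called.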

How the data were processed

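The deposited values are raw read counts per gene, made by the authors, 1 file per library laid out like the gene counts of STAR. The submitters' processing notes name STAR and DESeq2 and give no version; the library protocol, aligner options, genome build and annotation are unknown here. A symbol was matched to 19332 of the 19669 genes and a WBcel235 position to 19568. Sense-strand counts were used for footprints (99.7 to 99.9% sense) and unstranded counts for mRNA (50.7 to 50.9% sense), whose libraries held 15529549 to 16669407 gene counts. Reads not counted on genes, unmapped ones included, were left out of totals and tests. The authors' deposited tables compare strains and were not used.

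Genes were filtered with filterByExpr, scaled with TMM and tested in edgeR 4.0.16 under R 4.3.3 by quasi-likelihood, with Benjamini-Hochberg adjustment over all genes tested; a gene was called under 0.05. The SE was computed from the log2 fold change and its F value. The footprint and the mRNA test each used 6 wild-type libraries. The difference between them was the interaction of assay and temperature over 12 libraries, and the comparison with metl-5 the interaction of strain and temperature over 12 footprint libraries. CPM are counts per 1000000 gene counts. Floors cover counting error only, while the SE also includes the spread between libraries. No pair of libraries agreed within sampling noise.

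The members, the 48 gene lists, the tests and the rule for naming genes were chosen with earlier results of these data known. The rule took, among called genes without overlap and with a mean log2 CPM of at least 1, the 12 named and 4 sequence-named genes with the largest change each way, the 6 each way for the difference, up to 3 per list with at least 3 called, and 9 fixed genes. Genes shown for lists with few calls came from the same rule or the smallest p in the fit without 37 °C replicate 2, added after seeing the data, and bec-1, dnj-13, unc-45, gst-36, nhr-17, his-41, glp-1 and enpl-1 were chosen after their values were seen. In the lists 19 names were not matched.

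Deviations from the group means correlated at 0.495, 0.118 and 0.322 between footprint libraries with the same replicate number (11969 genes). For 20 °C replicate 2 the correlation was no higher than with 37 °C replicate 3 (0.131). The main fit took no account of the replicate number, and a fit with the number as a block is given beside it. The alternatives were scaling, filter, DESeq2 1.42.0, block, strand, all 12 libraries in one fit and left-out libraries. On simulated counts of 11969 genes the footprint test recovered 60% of 4-fold and 0% of 2-fold changes, and without replicate 2 (12362 genes) 60% and 10%.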

Additional observations from a re-analysis of the deposited data

How the results depend on the processing

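The count of genes with changed footprints, 118 with all 6 libraries, rested on which libraries entered. Leaving out 1 library at a time gave 14 to 4509 genes: 30, 15 and 14 without 20 °C replicates 1, 2 and 3, and 39, 4509 and 73 without 37 °C replicates 1, 2 and 3. It was 26 without the 2 libraries with reads of both strains and 2722 without the 3 doubted ones. It was 2069 with DESeq2 (1095 higher), 2071 with all 12 footprint libraries in one fit (1212 higher) and 223 without the filter (198 higher). Without replicate 2, RLE scaling gave 4546 (2232 higher) and library totals 4563 (2451 higher); both were added after seeing the data. With the replicate number as a block there were 71 genes for footprints and 2299 for the difference from mRNA. For mRNA the main fit had no block either (correlations of same-numbered libraries 0.447, 0.331 and −0.0325), and the block gave 3225 genes, against 1859. Leaving out 1 library gave 905 to 2424 genes for mRNA and 238 to 2492 for the difference, which stood at 1220. For the difference DESeq2 gave 2010, the libraries without reads of both strains 366, and without replicate 2 RLE gave 2421 and library totals 2742, added after seeing the data. The strain comparison gave 0 to 1 genes, with the 1 found without metl-5 37 °C replicate 1, and 0 with the block. The cause of these moves was not tested.

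Among single genes, 1692 recomputed values kept direction and side of the threshold, 220 lost their call, 199 gained one and 8 turned sign, none of them called in the main test. Those 8 were footprints of clec-222 (−0.24 without the libraries of both strains, −0.75 without the 3 doubted and, leaving out 1 library, −0.31 to 0.62, with −0.06 and −0.31 without 20 °C replicate 1 and 37 °C replicate 3), his-1 (−0.11 to 1.71 leaving out 1 library, with −0.11 and −0.03 without 20 °C replicates 1 and 3), F57A8.1 (1.01 with unstranded counts) and metl-5 (−0.017 without the 3 doubted).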
